A study of Homo sapiens with 6 samples.

Results

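The genes described here are the splicing factors and RNA-binding proteins among the transcripts measured in Huh7, an established cell line from a human hepatocellular carcinoma. Members are protein-coding genes whose symbol starts with RBM, HNRNP, SRSF, SF3A, SF3B, SNRP, PRPF, U2AF, LSM, DHX, CPSF, CSTF or CELF and whose mean count over the 6 libraries is at least 10. The rule found 46 of the 5187 listed genes. Of 176 protein-coding genes with these prefixes in GENCODE release 29, the other 130 have no entry among the listed genes, among them all 6 CELF genes and SRSF1, SRSF2, SRSF6, SRSF7, HNRNPA1, HNRNPA2B1, HNRNPC, HNRNPK, U2AF1, SNRPN, DHX9, DHX36 and CPSF6. No listed protein-coding gene of these families lay below the count minimum. The 3 listed genes with a matching name that are not protein-coding, HNRNPA3P11, PRPF19-DT and RBM26-AS1, were left out.

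RNA was sequenced from 3 control libraries and 3 libraries of cells given GABA (gamma-aminobutyric acid, a neurotransmitter that some tumour cells also make) for 24 h. All cells grew in DMEM with fetal bovine serum, and the labels used here give neither the dose of GABA nor a vehicle. The libraries of a group are named biological replicates, with nothing on whether the cultures were handled separately, so p-values measure the spread between these libraries. The series concerns GABA in the spread of this cancer, and the comparison asks which transcripts differ when GABA is added.

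A pre-mRNA is spliced by the spliceosome, which is built from small nuclear ribonucleoprotein particles (snRNPs), each a small RNA with a ring of Sm or LSm proteins and its own further proteins. U2AF and the U2 snRNP mark the end and the branch point of an intron, the U4/U6.U5 tri-snRNP and the Prp19 complex bring about catalysis, and DEAH helicases remodel such RNA-protein complexes. SR proteins mostly favour the use of the exons they bind, hnRNP proteins often do the opposite, and CPSF and CSTF cut the transcript and set its poly(A) site. Liver cancers are known to shift the splicing of many transcripts, but gene counts show only how much transcript of a factor is present, not how any intron was spliced.

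More of these genes were higher than lower with GABA: 30 rose and 16 fell in the edgeR quasi-likelihood test, with Benjamini-Hochberg adjustment over all tested genes and a threshold of 0.05. The share of all 4981 tested genes called in either direction was 98.7%, with 47.6% higher and 51.2% lower, so that passing the test says nothing particular about these 46. The listed genes follow this same comparison, since a gene's place in the files went with its p-value (Spearman 0.931) and the smallest log2 fold change of any tested gene was 0.12 in size. These counts and adjusted p-values are therefore descriptions of a preselected set. The same shares of all tested genes are the background for every count of genes called below. Most changes were small. The median log2 fold change of the 46 genes was 0.24 and its median size 0.29, against -0.18 and 0.40 over all tested genes. In size, 6 of the 46 reached 0.5, which 36.6% of tested genes did, and 1 reached 1, which 10.3% did. Under other scalings or tools, DESeq2 ended the calls of CPSF2, PRPF39, RBMS1, SF3A2 and SRSF4, DESeq2 size factors those of CPSF2, PRPF39, RBMS1 and SRSF4, library size only that of CPSF2, and a scaling set to the order of the files those of HNRNPUL1, LSM4, LSM5 and U2AF2. All 46 passed the filter on low counts, and in 43 the control and GABA libraries did not overlap, which held for 92.5% of tested genes. CPSF2, LSM5 and HNRNPUL1 overlapped. The share of 92.5% is the background wherever a gene below is said to lie clear of the other group. In bulk RNA, fewer cells of a type and less RNA per cell cannot be told apart.

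**Figure D1:**
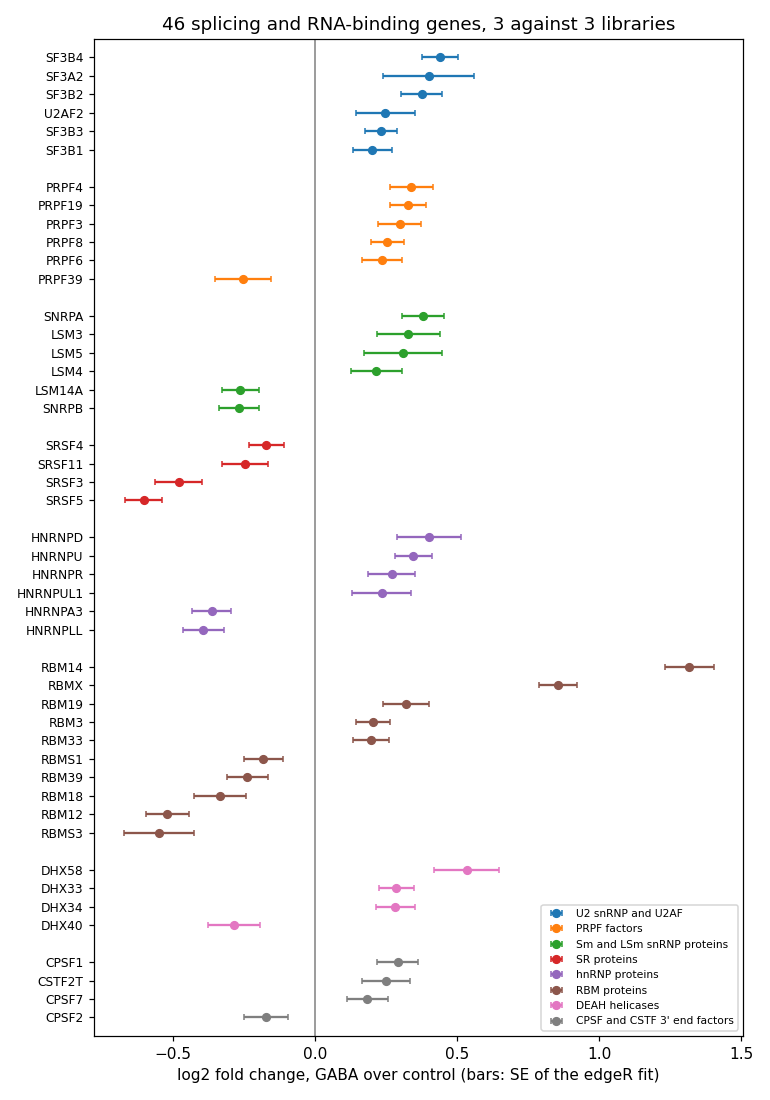
Log2 fold change (GABA over control) of each of the 46 genes, with the standard error of the edgeR fit, grouped and coloured by role. The 6 U2 genes lie at 0.20 to 0.44 and the 4 SR genes at -0.60 to -0.17, and RBM14 and RBMX lie furthest to the right.

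Counts over the listed genes summed to between 7702666 and 8392945 per library, which is not the depth of the libraries. Levels are given as CPM, a gene's count scaled by the TMM-adjusted sum of its library. Together the 46 genes took 1.62%, 1.64% and 1.57% of listed counts in control replicates 1, 2 and 3, and 1.78%, 1.77% and 1.76% in the GABA replicates. Control replicate 3 stood apart from the other controls: it was the highest control in 13 of the 16 genes that fell and the lowest in 19 of the 30 that rose. The reverse, highest among controls in a gene that rose or lowest in one that fell, was seen in 7 and 2 genes. Control replicate 3 is itself part of the control mean that sets each direction. Its median log2 ratio to the other controls was -0.17 in the members that rose and 0.19 in those that fell. The same lean, smaller, was seen over all tested coding genes, at -0.10 above 0 and 0.07 below 0. All 46 kept their sign without that library, with a median ratio of 0.841 between the sizes of the fold changes without and with it. That fit reuses the remaining libraries, and the genes were preselected on this comparison. The kept signs are therefore a description and not a separate test. Of the liver and hepatoma markers, 0 of 13 are listed, with 0 of 5 immune, 0 of 4 endothelial and 2 of 6 fibroblast markers (PDGFRB and COL3A1), so the identity of the line was not checked here.

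**Figure D2:**
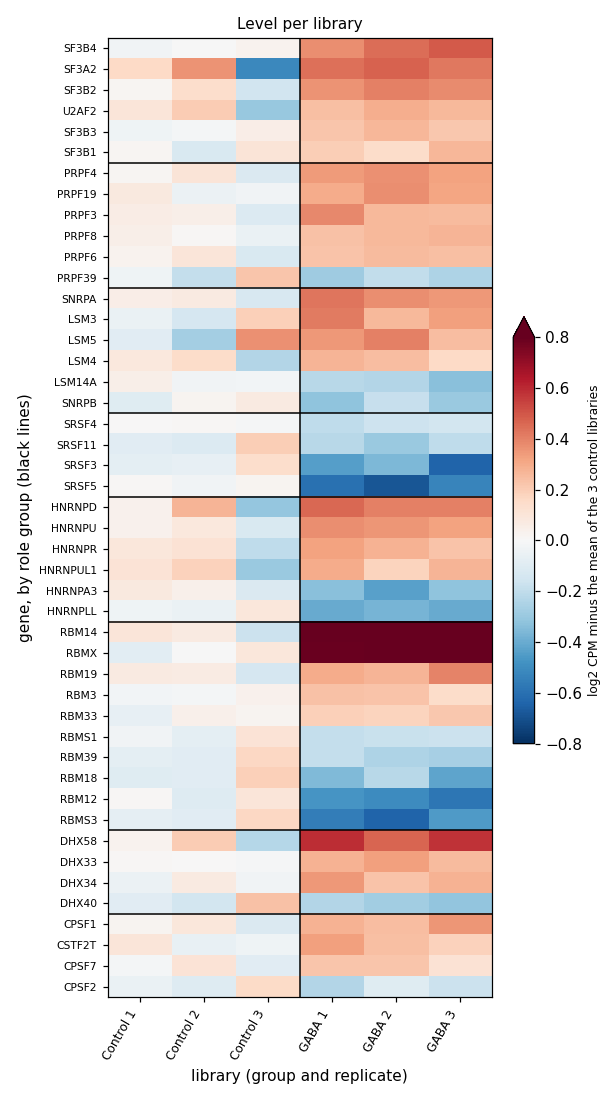
Level of each gene in each library as log2 CPM minus the mean of the 3 control libraries (red higher, blue lower, colour limits at 0.8), with black lines between role groups. Control replicate 3 is off the other controls in many rows, most in SF3A2 and LSM5, while the 3 GABA libraries resemble each other.

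All 6 listed genes of the U2 snRNP and U2AF were higher (median log2 fold change 0.31), where 47.6% of all tested genes were called higher. They are 1 of 3 annotated SF3A, 4 of 6 SF3B and 1 of 3 U2AF genes. The others have no entry in this preselected set, so their direction is not known here. With the GC trend described further on removed, U2AF2 (0.04) and SF3A2 (0.11) did not pass. Summed over the 6 genes, the level was 2757, 2807 and 2650.5 CPM in control replicates 1, 2 and 3 and 3284, 3342 and 3356 in the GABA replicates. Each of the 6 genes rose without overlap between the groups, so their sum could not overlap either. SF3B4, a small SF3B subunit that contacts the pre-mRNA near the branch point, stood at 202, 205 and 209.6 CPM in the controls and 266, 280.1 and 289 with GABA. Each GABA library lay above each control, and the log2 fold change was 0.44 ± 0.06 (SE, n = 3 each; edgeR adjusted p = 0.00018). SF3B2, a large SF3B subunit, went from 582, 634 and 519 to 741, 761 and 749 CPM (log2 fold change 0.38 ± 0.07, edgeR adjusted p = 0.001). SF3B1, which clamps the branch helix and is often mutated in cancers, rose by 0.20 ± 0.07, and its partner SF3B3 by 0.23 ± 0.06. The libraries read 659.5, 598 and 699.6 CPM for SF3B1 in the controls against 746, 721 and 784 with GABA, and SF3B3 went from 791, 799 and 839 to 943, 972 and 940.3 CPM.

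SF3A2, of the SF3A trimer, and U2AF2, which binds the pyrimidine tract before the 3′ splice site, also passed but rested more on a single control library. SF3A2 stood at 101, 116 and 63.1 CPM in the controls and 123, 125 and 121 with GABA, a log2 fold change of 0.40 ± 0.16 that became 0.18 without control replicate 3. For U2AF2 the values were 423, 454 and 319.7 CPM against 466, 482 and 473, with 0.25 ± 0.10 and 0.11. In both, control replicate 3 was far below the other controls, which themselves lay just under the GABA libraries. Both lost their call without any 1 of the GABA libraries (0.39 to 0.41 for SF3A2 and 0.24 to 0.26 for U2AF2, adjusted p = 0.067 to 0.091), and SF3B1 lost it without control replicate 2 (0.14, adjusted p = 0.060) or GABA replicate 3 (0.17, adjusted p = 0.070). Of the SF3A2 exon length, 12.7% overlaps PLEKHJ1.

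PRPF genes, most of them proteins of the tri-snRNP and the catalytic spliceosome, rose in 5 of 6 cases (median 0.28). PRPF19, the ubiquitin ligase that gives the Prp19 complex its name, went from 416, 382 and 386 CPM to 485, 510.2 and 491 (log2 fold change 0.33 ± 0.06, edgeR adjusted p = 0.00094). PRPF8, the large U5 protein that holds the catalytic core, stood at 1635, 1598 and 1527 CPM in the controls and 1869, 1897 and 1915 with GABA (0.26 ± 0.06, adjusted p = 0.0022), so that the lowest GABA library was above the highest control. PRPF4 and PRPF3, partners in the U4/U6 particle, rose by 0.34 ± 0.08 and 0.30 ± 0.07. For PRPF4 the libraries read 129, 137 and 118 and 162, 164 and 160.1 CPM, and for PRPF3 155, 154 and 138 and 194, 178 and 177. PRPF6, which bridges U5 and U4/U6, rose by 0.24 ± 0.07, from 312, 327 and 281 to 358, 365 and 361 CPM. PRPF39, a factor of the U1 snRNP, was the exception.

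PRPF39 fell from 132, 118 and 158 to 111, 118 and 114 CPM, with a log2 fold change of -0.25 ± 0.10 (edgeR adjusted p = 0.027). Its highest GABA library and lowest control were nearly equal, at 118 CPM each. The call was lost without control replicate 3 (-0.14, adjusted p = 0.057) and without any 1 of the GABA libraries (-0.28 to -0.23, adjusted p = 0.052 to 0.090). An exon length share of 13.2% overlaps FKBP3.

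The Sm and LSm genes were split, with 4 of 6 higher and 2 lower (median 0.26). SNRPA, the A protein of the U1 snRNP, was the clearest rise, from 151, 152 and 133 to 195, 187 and 185 CPM (0.38 ± 0.07, edgeR adjusted p = 0.001). SNRPB, which encodes the Sm proteins B and B′ of the ring, fell from 308, 335 and 346 to 264, 290.2 and 269 CPM (-0.27 ± 0.07, adjusted p = 0.0051). Both were free of overlap between the groups, as were 92.5% of all tested genes. These 2 snRNP genes went opposite ways. LSM14A, a P-body protein that acts in translation control and not in splicing, fell from 248, 236 and 236 to 206, 204 and 190.2 CPM (-0.26 ± 0.06, adjusted p = 0.0037). LSM3, LSM4 and LSM5, of the ring that binds U6 RNA and, in the cytoplasm, decaying mRNA, rose by 0.33, 0.22 and 0.31.

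These 3 ring genes had wide spreads. LSM5 stood at 59.7, 52.8 and 82.0 CPM in the controls and 81.1, 84.4 and 75.6 with GABA, and control replicate 3 lay inside the GABA range. Without that library its log2 fold change was 0.51, and leaving out any 1 of the other 5 libraries ended its call (0.18 to 0.35, adjusted p = 0.064 to 0.17). LSM4, at 403, 420.2 and 323 and 458, 450.4 and 424 CPM, went the other way, to 0.11 without control replicate 3, and lost its call without any 1 of the GABA libraries (0.20 to 0.25, adjusted p = 0.051 to 0.11). LSM3, at 36.7, 34.7 and 43.5 and 50.7, 45.6 and 47.9 CPM, lost its call without control replicate 1 (adjusted p = 0.052) or GABA replicate 1 (0.29, adjusted p = 0.060). GENCODE release 29 lists 4 pseudogenes named after LSM3 and 1 after SNRPB and part of the SNRPB exons overlaps another gene, so the sources of their reads are uncertain.

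All 4 listed SR genes, of 12 annotated, fell (median -0.36), where 51.2% of all tested genes were called lower. The other SR genes have no entry in this preselected set, so their direction is not known here. Summed, the 4 listed genes stood at 1870.0, 1866 and 2114 CPM in control replicates 1, 2 and 3 and 1501, 1506 and 1440.5 with GABA. Each of the 4 genes fell without overlap between the groups, so their sum could not overlap either. SRSF5 (ENSG00000100650, chr14:69726900-69772005, GRCh38), first described as an insulin-induced gene of liver cells, fell from 324, 316 and 328 to 213, 201 and 224 CPM. Its log2 fold change of -0.60 ± 0.07 (edgeR adjusted p = 2.9e-05) was the lowest of the 46, and the 3 controls were close together. SRSF3 (ENSG00000112081, chr6:36594353-36605600), an SR protein that also acts in export and 3′ end choice and whose loss in mouse liver is known to impair hepatocytes, fell from 834, 842 and 970.4 to 649, 685 and 564 CPM (-0.48 ± 0.08, adjusted p = 0.00051). Control replicate 3 was its highest control and GABA replicate 3 its lowest library. SRSF11, a larger SR protein found with U1 and U2, stood at 491, 484 and 597 and 447, 424 and 453 CPM (-0.25 ± 0.08). SRSF4, a relative of SRSF5 and SRSF6, had close replicates at 222, 222 and 219 and 192, 197 and 199.6 CPM (-0.17 ± 0.06). The change of SRSF11 was -0.15 without control replicate 3. Its call ended without GABA replicate 2 (-0.22, adjusted p = 0.061), and that of SRSF4 without control replicate 1 or GABA replicate 1 or 2 (-0.18 to -0.15, adjusted p = 0.050 to 0.081).

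**Figure D3:**
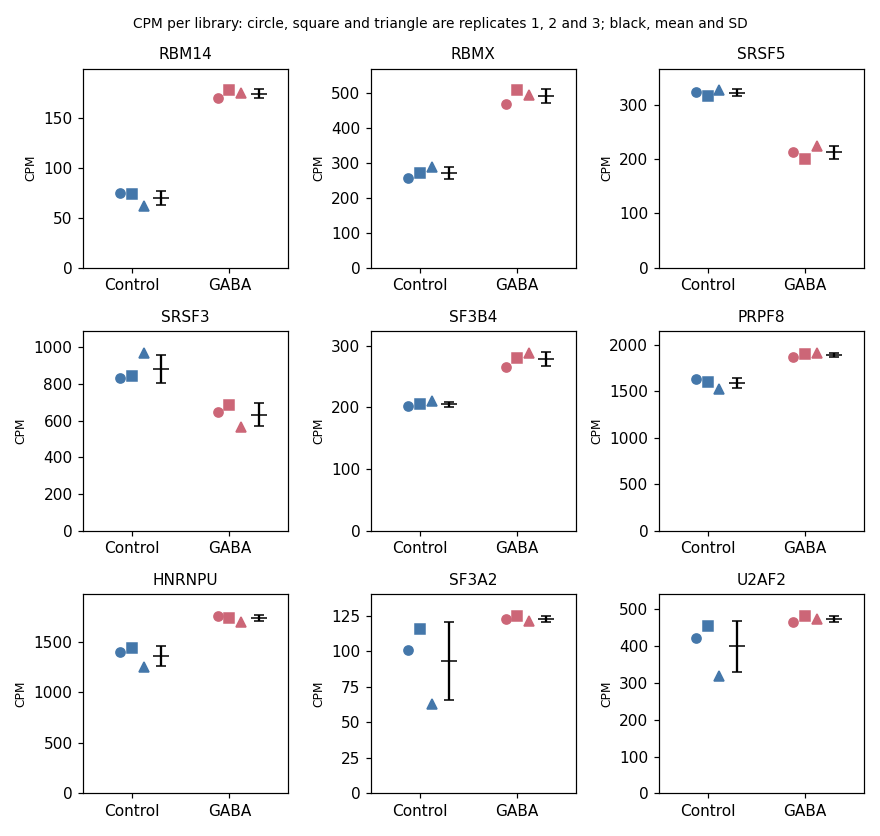
CPM of 9 genes in each library (blue control, red GABA; circle, square and triangle are replicates 1, 2 and 3; black bars are the mean and SD of 3). The groups are far apart in RBM14, RBMX and SRSF5, and in SF3A2 and U2AF2 the triangle of control replicate 3 sits well below the other controls.

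The starts of these genes were searched for short motifs in the 250 bases before the RefSeq gene start (GRCh38.p14), on both strands, with motifs chosen after the directions were known. Windows were found for 38 of the 46 genes and not for CPSF1, DHX33, DHX58, LSM14A, PRPF3, PRPF39, RBM39 and SF3B3. The cAMP response element TGACGTCA, the site of CREB and ATF factors, or the shorter run TGACGTA was present in 6 of 13 genes that fell (46.2%) and in 0 of 25 that rose. The share was 3.49% of all 27305 gene promoters of this length. Of the 13 genes that fell, 2 had TGACGTCA (2.03% of all promoters) and 4 had TGACGTA (1.5%). Among all tested coding genes with a window the pooled share was 5.81% of 1705 that lay above 0 and 4.28% of 1846 below 0. The split among these 38 genes, for motifs pooled after the directions were known, was not seen in the listed genes as a whole. A match is a description of the letters and not a binding site. The 6 stretches of 30 bases are shown because both strongly lowered SR genes are among them, with the run in capitals, read 5′ to 3′ in the direction of each gene.
SRSF5 (chr14:69767081-69767110, + strand): gtccccggaagTGACGTAggacgcgccctc
SRSF3 (chr6:36594256-36594285, + strand): gtttgtagccaTACGTCAcggcctcttctg
RBM12 (chr20:35664945-35664974, - strand): gcgcggcccctTGACGTCAaccacgccgtt
RBM18 (chr9:122264853-122264882, - strand): cgcggacgtcgTGACGTCAcgaagccagga
DHX40 (chr17:59565577-59565606, + strand): gtaaacacctcTACGTCAtcagggcgcgtc
SNRPB (chr20:2470910-2470939, - strand): aaggctctcctTACGTCAaagccggatgtt

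The run reads TGACGTA on the other strand in SRSF3, DHX40 and SNRPB. It ended 16 bases before the RefSeq start in DHX40 and 133 bases before it in SNRPB, with the other 4 in between. In DHX40, RBM12, RBM18 and SRSF5 the stretch overlaps a GENCODE release 29 exon, counting exons of any gene on either strand. For RBM18 the exon is of another gene, since the stretch lies wholly before the GENCODE start of RBM18. For DHX40, RBM12 and SRSF5 the gene of the exon was not recorded, and their GENCODE starts differ from those of RefSeq. The ETS core CCGGAAG did not separate the directions, with 9 of 25 rising and 5 of 13 falling genes, against 10.2% of all promoters and 19.9% and 13.6% of tested coding genes above and below 0. In SRSF5 it lies directly before the run. The E-box CACGTG was in 4 of 25 and 2 of 13 (7.73% of all promoters, and 12.0% and 10.9% of tested coding genes above and below 0). The CCAAT box was in 13 of 25 and 4 of 13 (37.0%, 45.9% and 38.1%). The GC box GGGCGG was in 16 of 25 (64.0%) and 6 of 13 (46.2%), against 46.2% of all promoters and 75.5% and 78.7% of tested coding genes. No test was made of these shares.

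RBM genes, a family named only for the RNA-binding motif, held the largest changes and no common direction, with 5 of 10 higher and 5 lower (median 0.01). RBM14 (ENSG00000239306, chr11:66616582-66627347), a paraspeckle protein also known as CoAA that coactivates transcription and affects splicing, stood at 74.4, 73.2 and 61.8 CPM in the controls and 169.6, 178 and 175 with GABA. Its lowest GABA library was above its highest control by more than the whole control level, and the log2 fold change was 1.32 ± 0.09 (edgeR adjusted p = 9.6e-07). Part of the RBM14 exons overlaps the readthrough gene RBM14-RBM4, so its reads are partly uncertain. RBMX (ENSG00000147274, chrX:136848004-136880764), the X-linked hnRNP G protein that acts in splicing and in chromosome cohesion, rose from 256, 271 and 289 to 470.1, 510.0 and 497 CPM (0.86 ± 0.07, adjusted p = 3.1e-06). Control replicate 3 was its highest control, and without it the change was 0.90. GENCODE release 29 lists 3 pseudogenes named after RBMX.

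The other 3 rises were smaller. RBM19, which acts in ribosomal RNA processing, rose by 0.32 ± 0.08 from 118, 118 and 103 to 139, 136 and 148 CPM. RBM3, the cold-inducible protein that binds mRNA and aids translation, went from 460.4, 462 and 479 to 549.7, 546 and 517 CPM (0.20 ± 0.06, edgeR adjusted p = 0.0083). RBM33 rose by 0.20 ± 0.06, from 208, 223 and 221 to 248, 246 and 252 CPM, and lost its call without control replicate 1 (0.16, adjusted p = 0.059). Replicates of RBM3 and RBM33 were close, and the groups did not overlap in either, as in 92.5% of all tested genes.

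Of the falls, RBM12 and RBMS3 were the largest. RBM12 stood at 176, 163 and 188 CPM in the controls and 127, 124 and 118 with GABA (-0.52 ± 0.08, edgeR adjusted p = 0.00018). RBMS3, a single-stranded nucleic acid binder that stabilises mRNAs, stood at 28.3, 28.0 and 33.3 and 20.3, 19.1 and 21.7 CPM (-0.55 ± 0.12, adjusted p = 0.0023). Its relative RBMS1 fell by far less, from 247, 239 and 273 to 222, 223 and 224 CPM (-0.18 ± 0.07), and lost its call without any 1 of the GABA libraries (-0.18 each, adjusted p = 0.064 to 0.076). RBM18 went from 157, 158 and 192 to 132, 144 and 125 CPM (-0.34 ± 0.09). RBM39, a U2AF-related splicing factor that aryl sulfonamide drugs cause to be degraded, went from 934, 927 and 1106 to 864, 832 and 819 CPM (-0.24 ± 0.07, adjusted p = 0.01). In RBM18 and RBM39 control replicate 3 was the highest control, and without it the changes were -0.24 and -0.15, the latter smaller by over 1.5 times.

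Among hnRNP genes 4 of 6 rose and 2 fell (median 0.25, and 0.14 without control replicate 3). HNRNPU, a nuclear scaffold protein that binds RNA and chromatin, stood at 1397, 1442 and 1253 CPM in the controls and 1760.3, 1739 and 1701 with GABA (0.35 ± 0.06, edgeR adjusted p = 0.00081), and 15.6% of its exon length overlaps COX20. HNRNPD, known as AUF1, which binds AU-rich elements and speeds mRNA decay, went from 311, 368 and 246 to 418, 402 and 402 CPM (0.40 ± 0.11). Its controls were spread widely, and the change without control replicate 3 was 0.26. HNRNPR rose by 0.27 ± 0.08, from 376, 382 and 306 to 441, 428 and 414 CPM, and by 0.17 without that library. HNRNPUL1, a relative of HNRNPU that acts at DNA breaks, overlapped between the groups, at 354, 373 and 267 and 403, 372 and 396 CPM (0.24 ± 0.10). Its call was lost without control replicate 3 (0.10, adjusted p = 0.067) and without any 1 of the GABA libraries (0.21 to 0.27, adjusted p = 0.059 to 0.13).

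In both hnRNP genes that fell the groups did not overlap, as in 92.5% of all tested genes. HNRNPLL, a regulator of alternative splicing best known for CD45 in T cells, went from 150.4, 149 and 164 to 117, 119 and 116 CPM (-0.39 ± 0.07, edgeR adjusted p = 0.00074). HNRNPA3, of the A/B group of hnRNP proteins, went from 640.1, 624 and 559.9 to 482, 449 and 486 CPM (-0.36 ± 0.07, adjusted p = 0.00084). In HNRNPA3 control replicate 3 was the lowest control, and the change without it was -0.42. GENCODE release 29 lists 16 pseudogenes named after HNRNPA3, so its count may hold or lack reads of copies.

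The DHX genes, RNA helicases of several pathways, rose in 3 of 4 cases (median 0.29), and none of the 4 is a core splicing helicase. DHX58, the RIG-I-like receptor LGP2 that senses viral RNA, stood at 42.5, 47.9 and 35.6 CPM in the controls and 62.8, 57.5 and 62.2 with GABA (0.53 ± 0.11, edgeR adjusted p = 0.0018). DHX33, which acts in ribosomal RNA synthesis, had the most even controls of the 4, at 302, 301 and 299 CPM, and rose to 365, 378 and 358 (0.29 ± 0.06, adjusted p = 0.0017). DHX34, of nonsense-mediated decay, rose by 0.28 ± 0.07, from 149.7, 162 and 151 to 196, 181 and 187 CPM. DHX40 fell, from 259.9, 251 and 326 to 236, 229 and 223 CPM (-0.28 ± 0.09). Its control replicate 3 was far above the other controls; without it the change was -0.16, and without GABA replicate 3 the call was lost (-0.26, adjusted p = 0.051).

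The cleavage and polyadenylation genes had the smallest changes of any role group, with 3 of 4 higher (median 0.22). CPSF1, the large scaffold subunit of CPSF, rose from 289, 303 and 263 to 345, 337 and 364 CPM (0.29 ± 0.07, edgeR adjusted p = 0.0035). CSTF2T, an intronless copy of the CSTF subunit that binds downstream of the cleavage site, went from 83.5, 75.1 and 76.3 to 98.1, 92.5 and 89.0 CPM (0.25 ± 0.08). CPSF7, a subunit of the CFI complex that helps choose the poly(A) site, went from 271, 296 and 258 to 320.2, 319.8 and 297 CPM (0.18 ± 0.07). CPSF2, a partner of the CPSF endonuclease, stood at 286, 276 and 329.8 and 252, 277 and 263 CPM, where GABA replicate 2 lay just above control replicate 2 (-0.17 ± 0.08, adjusted p = 0.047). Its call ended when any library but control replicate 2 was left out (-0.21 to -0.09, adjusted p = 0.056 to 0.18) and with the replicate block (-0.17, adjusted p = 0.061), and its value moved by over 1.5 times without control replicate 3. CPSF7 lost its call without control replicate 1 or GABA replicate 1 or 2 (0.17 each, adjusted p = 0.075 to 0.091), and CSTF2T without GABA replicate 1 (0.21, adjusted p = 0.070).

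Per length, which allows levels to be compared between genes, the order differed from that of CPM. Mean CPM over the 6 libraries per kilobase of exons was highest for SNRPB at 236, then PRPF19 at 162, PRPF8 at 153, LSM4 at 136 and RBM3 at 135. RBMS3 was lowest at 1.37, then LSM3 at 11.3 and DHX58 at 13.4. On this scale SF3B4 (108) was above SF3B1 (76.5), the reverse of their CPM. The exon lengths are unions over all annotated transcripts, so genes with many long isoforms read low.

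Genes that rose and genes that fell differed in base composition. The median GC content of the longest coding transcript was 52.0% over the 30 genes that rose and 39.9% over the 16 that fell. Of the 16 that fell, 14 had at most 50% GC, with SRSF4 and SNRPB above, and of the 30 that rose 14 had at most 50%. The same difference was smaller over all tested coding genes, at 53.3% above 0 and 45.3% below 0. Across the 46 genes GC content and log2 fold change had a Spearman correlation of 0.514 (Pearson 0.523), and across 4381 tested coding genes 0.230. These points share the same 6 libraries, and a gene's GC content also went with the deviation of control replicate 3 from the other controls (Spearman -0.632 over the 46, -0.681 over the 4381).

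The trend of fold change with GC content was fitted over the tested genes with a coding transcript and removed, a setting added after the data had been seen. With it, 22 of the 46 genes were higher and 8 lower. Of all tested genes 71.6% then passed, with 35.7% lower. These shares include genes without a GC value, which were left uncorrected. The 8 that stayed lower were SRSF5, SNRPB, RBM12, RBMS3, SRSF3, SRSF4, HNRNPLL and HNRNPA3, and SRSF5 was nearly unaltered at -0.61 (edgeR adjusted p = 2.3e-05). RBM14 stayed at 1.14 and RBMX at 0.95. In the U2 group SF3B1, SF3B2, SF3B3 and SF3B4 passed, at 0.36, 0.27, 0.24 and 0.33, while U2AF2 (0.04, adjusted p = 0.71) and SF3A2 (0.11, adjusted p = 0.55) did not. Calls were also lost for the rises of CPSF1, CPSF7, DHX34, PRPF6, LSM4 and HNRNPUL1 and for the falls of CPSF2, DHX40, PRPF39, RBM18, RBM39, RBMS1, SRSF11 and LSM14A. Among genes that still passed, the change was smaller by over 1.5 times for PRPF19 (0.20), SNRPA (0.22), SRSF3 (-0.31), RBMS3 (-0.35), HNRNPLL (-0.22) and HNRNPA3 (-0.17). It was larger by over 1.5 times for SF3B1, SNRPB (-0.41), LSM5 (0.51) and HNRNPR (0.48). The part of GC content in the changes was not tested beyond this.

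**Figure D4:**
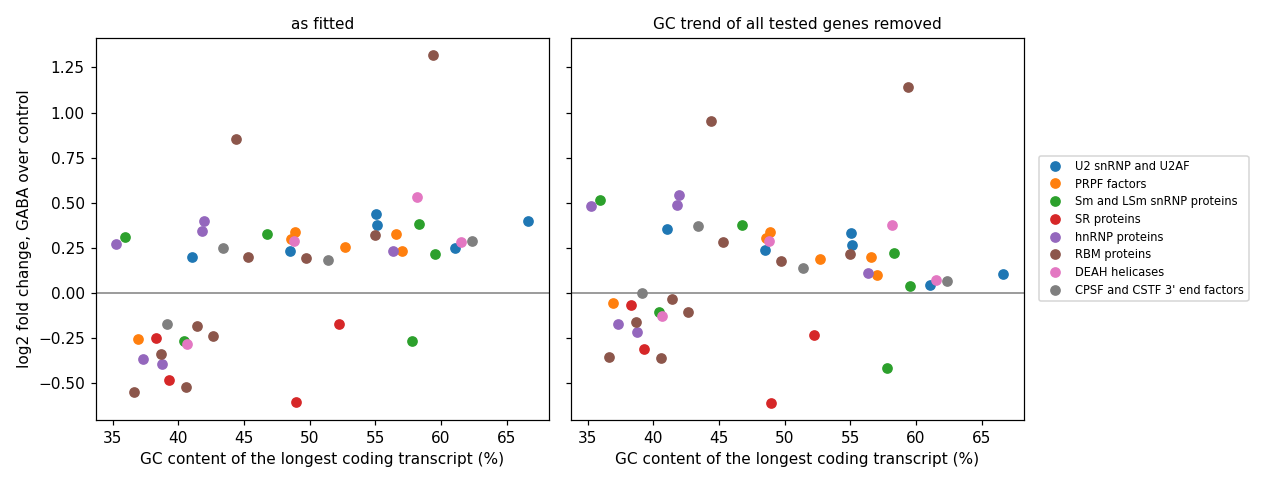
Log2 fold change of the 46 genes (GABA over control) against the GC content of the longest coding transcript in percent, as fitted (left) and with the GC trend of the tested genes with a coding transcript removed (right), coloured by role. On the left nearly all genes below 0 sit at low GC content, and on the right SRSF5 and SNRPB lie lowest.

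**Figure D5:**
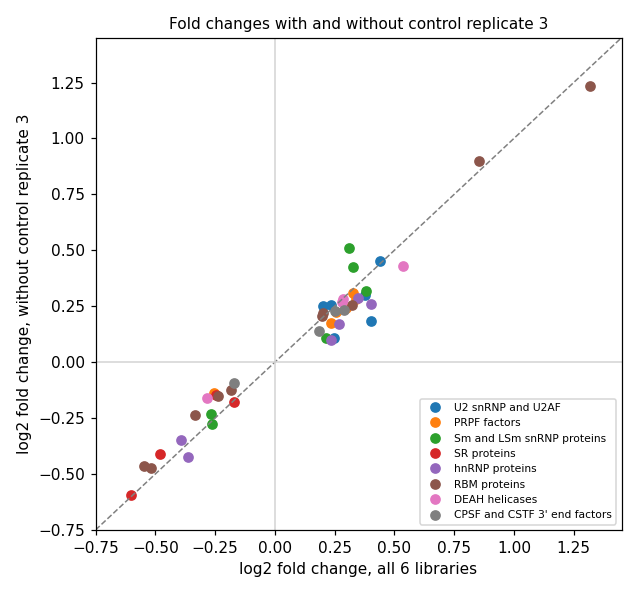
Log2 fold change of each gene with all 6 libraries (x axis) against that without control replicate 3 (y axis), with a dashed line of equal values. All 46 points keep their sign, and most lie nearer to 0 on the y axis.

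Other genes of RNA processing that do not carry these prefixes were followed in 5 lists of 207 genes, of which 75 were tested: 51 rose, 23 fell and SMG1 did not pass (-0.12, edgeR adjusted p = 0.055). Of all tested genes 98.7% were called, 47.6% higher and 51.2% lower, so passing says nothing particular about these lists. Other core spliceosome genes were higher in 13 of 18 (median 0.32), led by SUGP2, a relative of a U2-associated protein (303, 309 and 305 to 439.7, 433 and 444 CPM, 0.52 ± 0.06). SNRNP200, the U5 helicase that unwinds U4/U6, rose by 0.38 ± 0.06, and DDX46, a helicase of the U2 snRNP, by 0.41 ± 0.06. The other 5 genes of this list fell, a count that was 2 without GABA replicate 3, 3 without GABA replicate 2, 2 with DESeq2 size factors, 3 with DESeq2 and 2 with the GC trend removed.

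SR-related proteins and their kinases rose in 10 of 12 and fell in 2 (median 0.26). Without GABA replicate 3, 6 were higher and 1 lower, and with the GC trend removed 6 were higher while ARGLU1 and LUC7L3, the genes that had fallen, did not pass. The lower count was also 1 without any 1 of control replicates 1 and 3 and GABA replicates 1 and 2, with library size only, with DESeq2 or its size factors, and with a mean count of 10. THRAP3 and BCLAF1, related SR-rich proteins that act together in splicing and export, rose by 0.49 ± 0.07 and 0.56 ± 0.08, and CLASRP by 0.37 ± 0.09, which lost its call with the GC trend removed (0.18). Other splicing regulators rose in 13 of 20 and fell in 7 (median 0.25), or 3 with the GC trend removed. ZNF326, which couples splicing to elongation, rose by 0.47 ± 0.07, and SAFB2, a scaffold attachment factor, by 0.71 ± 0.12, from 131, 149.7 and 98.7 to 209, 198 and 213 CPM. RBFOX2, a regulator of epithelial and mesenchymal exon choice, fell from 384, 391 and 351 to 291, 274 and 275 CPM (log2 fold change -0.42 ± 0.07).

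Genes of snRNP assembly, export, the exon junction complex and nonsense-mediated decay rose in 13 of 17 and fell in 3 (median 0.34). The lower count was 1 without GABA replicate 3, with DESeq2 or its size factors, and with the GC trend removed. THOC6, of the export complex THO, rose by 0.76 ± 0.08 (18.0% of its exon length overlaps another gene), UPF1, the decay helicase, by 0.58 ± 0.07 (0.39 with the GC trend removed), and GEMIN4, of the SMN complex, by 0.36 ± 0.07. In the list of other 3′ end genes 2 of 8 were higher and 6 lower (median -0.27), and 1 and 2 with the GC trend removed. INTS8, INTS13 and INTS1 belong to the Integrator complex, which cuts small nuclear RNAs, and had -0.99 ± 0.10, -0.46 ± 0.10 and 0.45 ± 0.08. INTS1 lost its call with the GC trend removed (0.18). INTS8 stood at 118, 102 and 128 CPM in the controls and 56.6, 54.5 and 63.1 with GABA, and 20.7% of its exon length overlaps another gene. With the GC trend removed, the lists together had 40 genes higher and 8 lower.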

How the data were processed

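The deposited files hold whole-number read counts per gene, 1 file per library, with Ensembl gene identifiers. The tools named in the submitters' processing notes are Bowtie 0.12.2 and CASAVA 1.8, and the build is hg38. The counting program, the annotation and the use of strand are not given in the sources used here, so overlapping genes and near-copies are uncertain. All 5187 identifiers were found in GENCODE release 29, with symbols from a gene name table for 5173 and from GENCODE for 14.

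Counts were tested with edgeR 4.0.16 in R 4.3.3 (filterByExpr with minimum count 10 and minimum total 15, TMM, robust quasi-likelihood F test, GABA against control, Benjamini-Hochberg over all 4981 tested genes, threshold 0.05). The members and lists were chosen with earlier results of these data known. Named genes were the 3 smallest p per role group and list, the 5 largest rises and falls at 50 CPM or more, the 5 smallest changes and a fixed set. Other members and some other genes were named after their values were seen. Scripts were tested on simulated data in which 4766 of 4965 tested genes had no change. The listed genes are unlike that, so the simulation does not cover the effect of their preselection. Alternatives were DESeq2 1.42.0 and its size factors, library size only, a scaling set to the file order, no filter, a mean count of 10, a fold change minimum, the replicate block, each library left out, and a loess GC correction. Promoter letters came from RefSeq tables on GRCh38.p14, and the last 20 bases of 41 of 43 windows were found in a transcript of the gene. Same-numbered libraries did not deviate together (correlations 0.00033, -0.089 and -0.036).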

Additional observations from a re-analysis of the deposited data

How the results depend on the processing

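Among 854 values of 61 genes under the alternatives, 777 kept direction and call, 76 kept direction only, and 1 turned: CPSF2 with the GC trend removed (0.002, not called). The 46 genes had 26 higher and 16 lower when scaled to the order of the files, 29 and 12 with DESeq2, and 22 and 8 with the GC trend removed. Leaving out a library gave 22 to 29 higher and 11 to 16 lower. With the replicate block, 30 were higher and 15 lower; the labels do not say that numbers mark shared handling, and the block ended 1 call, that of CPSF2. An absolute log2 fold change of 1 left 1 member higher and 0 lower by construction, against 30 and 16 at the adjusted threshold alone. It left 275 higher and 240 lower of all genes, and 1 and 0 of the other lists. Lower genes of the other lists numbered 13 with DESeq2 size factors, 14 with DESeq2, 8 with the GC trend removed and 15 to 23 with a library left out, against 23. Removing the GC trend moved the medians of the SR (-0.27), Sm and LSm (0.13), PRPF (0.19), DHX (0.18) and cleavage (0.10) groups. DESeq2 size factors and DESeq2 each moved the DHX median to 0.33, and leaving out a library gave the U2 median as 0.26 to 0.39. Apart from the construction of the fold minimum, the cause of these shifts was not tested. In 24 of the 46 genes the call held in every setting but the fold minimum. The listed genes hold almost none with little change, and the depth of the whole libraries is unknown here.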

Other observations

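Some partner genes of RNA processing outside the 46, picked after their values were seen, are given here. SAFB and SAFB2, neighbouring paralogs that bind scaffold DNA and RNA, rose by 0.60 ± 0.10 and 0.71 ± 0.12 on the log2 scale (SE). NONO and SFPQ, paraspeckle proteins that pair with each other, rose by 0.31 ± 0.06 and 0.22 ± 0.06; NONO stood at 1188, 1105 and 1113 CPM in the controls and 1374, 1423 and 1419 with GABA. Among genes of nonsense-mediated decay, higher levels were seen for UPF1 at 0.58, SMG5 at 0.34 and SMG9 at 0.34, while UPF3A fell (-0.30). Of the methylosome, which modifies Sm proteins, PRMT5 (0.28) and WDR77 (0.27) rose and CLNS1A (-0.20) fell, but 27.1% of the PRMT5 and 36.5% of the WDR77 exon length overlaps other genes, so their reads are uncertain. The related helicases DDX5 and DDX17 both fell, DDX17 more clearly (-0.31, edgeR adjusted p = 0.00071). DDX5 was near the threshold (-0.13, edgeR adjusted p = 0.042), and 9.1% of its exon length overlaps other genes. ESRP2, an epithelial splicing regulator, had the largest rise of the lists (1.44 ± 0.29) at only 1.58, 3.37 and 1.65 CPM in the controls and 6.04, 5.81 and 6.02 with GABA.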
